A study of Mus musculus with 22 samples.

Results

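The genes of 5 steroid hormone receptors were followed in RNA sequenced from *Phf8* wild type (WT) and knockout (KO) mice and cells: the estrogen receptors *Esr1* and *Esr2*, the progesterone receptor *Pgr*, the glucocorticoid receptor *Nr3c1* and the mineralocorticoid receptor *Nr3c2*. They were chosen by name from the 39179 gene identifiers in each count table. The choice of *Esr1* rested on its higher counts in the KO prefrontal cortex of these same samples, so the KO and WT values of all 5 genes in that tissue are a description and carry no test. *Phf8* encodes an X-linked histone demethylase, and the comparisons ask how its loss changes gene expression. Embryonic stem cells (ESCs), derived from blastocysts, were represented by 2 WT and 2 KO samples. Neural progenitor cells (NPCs), derived from embryos and grown as a monolayer, were represented by 3 WT and 3 KO samples. Prefrontal cortex (PFC) and ventral striatum (STR) of adult mice aged 2 months gave 3 WT and 3 KO samples each. All samples carried the strain background B6x129SvJ, and no drug or hormone treatment is given in the labels. The KO allele lacks the exons that encode a catalytic part of the protein. It was made by Cre in clones of ESCs, so every cell of the KO mice carries the deletion. The labels used here do not say whether the samples of a group came from separate animals or cultures, or name the sex or reproductive stage of the mice. P-values therefore measure the spread between samples, which may be technical.

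Steroid hormone receptors are transcription factors that are switched on by small, fat-soluble hormones. In the absence of hormone they are held by Hsp90 chaperone complexes, and once bound they act in the nucleus on DNA response elements and recruit coactivators or corepressors. The estrogen receptors prefer one family of response elements, whereas the glucocorticoid, mineralocorticoid and progesterone receptors share another. In brain, the glucocorticoid receptor is widespread and mediates the response to stress hormones. The mineralocorticoid receptor binds the same hormones with higher affinity and is best known from the hippocampus. Estrogen receptor alpha (*Esr1*) is best known from the hypothalamus, preoptic area and amygdala, and *Pgr* is a classical gene induced by estrogen.

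Upstream sequences are shown for the 3 sex steroid receptors, because the choice of genes rested on *Esr1* and because estrogen receptors act on short DNA words that can be read directly. RefSeq windows for GRCm38.p6 were matched for 4 of the 5 genes, and each was cut to the 250 bases before a start site. *Esr1* had 2 such windows. The more upstream one lies wholly in an annotated *Esr1* exon and is not shown. Only bases outside annotated exons are printed, 5′ to 3′ on the strand of the gene, with the estrogen half-site GGTCA in capitals, searched on both strands.
*Esr1*, chr10:4709908-4710154, plus strand: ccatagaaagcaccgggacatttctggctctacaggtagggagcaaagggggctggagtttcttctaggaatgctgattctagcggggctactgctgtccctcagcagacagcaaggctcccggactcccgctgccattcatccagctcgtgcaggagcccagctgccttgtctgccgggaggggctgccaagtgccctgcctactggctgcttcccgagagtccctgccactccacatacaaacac
*Esr2*, chr12:76177260-76177509, minus strand: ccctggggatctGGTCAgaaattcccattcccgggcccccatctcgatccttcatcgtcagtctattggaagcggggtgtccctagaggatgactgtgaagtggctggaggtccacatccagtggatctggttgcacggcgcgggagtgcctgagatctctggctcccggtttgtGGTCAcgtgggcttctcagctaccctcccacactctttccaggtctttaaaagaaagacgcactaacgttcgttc
*Pgr*, chr9:8899583-8899832, plus strand: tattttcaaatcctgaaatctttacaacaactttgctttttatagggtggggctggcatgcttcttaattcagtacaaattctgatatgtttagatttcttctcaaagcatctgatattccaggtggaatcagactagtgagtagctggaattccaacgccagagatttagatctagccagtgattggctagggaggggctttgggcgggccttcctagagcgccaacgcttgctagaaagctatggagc
The shown *Esr1* and *Pgr* windows held no half-site on either strand, and the *Esr2* window held 2. Among 32851 windows of the same length, 35.2% held at least 1. The full estrogen response element, a palindrome of that half-site and its reverse complement with a spacer, was in none of the 5 windows of these genes and in 0.064% of all windows. The printed *Esr1* start site window held 7 CG dinucleotides, the *Pgr* window 4 and the *Esr2* window 12, against a median of 6 over all windows. These counts describe letters and do not say whether a receptor binds there.

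Total counts on genes ranged from 5898286 to 15539811 per sample. *Phf8* itself was lower in every KO sample than in every WT sample of the same tissue. It was at 63.3 and 71.3 CPM (read counts scaled for library size and composition) in WT ESCs and 16.5 and 22.3 CPM in KO ESCs. In the other tissues it spanned 38.6 to 49.7 CPM in WT and 13.4 to 20.6 CPM in KO. The log2 fold changes (KO minus WT) were between -1.79 and -1.37. Reads from the exons that remain are still counted, so this check shows a lower transcript level and not the deletion itself. This difference was past the threshold, a false discovery rate (FDR) under 0.05 in edgeR, in NPCs (FDR 0.0285) and PFC (FDR 0.00193), not in ESCs (FDR 1) or STR (FDR 0.0956). It was past it in all 4 tissues in DESeq2, in the likelihood ratio test and with the replicate block, where the FDR was 6.2e-13 in ESCs and 0.0327 in STR. In NPCs the call was lost with any 1 sample left out (FDR 0.154 to 0.544). Markers of the labelled cells were present. Pluripotency genes summed to 3299 to 4172 CPM in ESCs and at most 4.88 CPM elsewhere, and striatal projection neuron genes to 1313 to 1761 CPM in STR and 218 to 248 CPM in PFC. Several libraries stood apart. In ESCs the fibroblast markers summed to 3053 and 3739 CPM in replicate 2 of WT and KO and to 143 and 135 CPM in replicate 1. In NPCs the oligodendrocyte markers summed to 222.6 and 421.4 CPM in replicate 2 of WT and KO and to 1949 to 3234 CPM in the others. KO STR replicate 1 carried *Oxt* at 39.6 CPM, *Avp* at 62.7 CPM and *Otp* at 17.8 CPM, whereas the 3 WT STR samples had at most 1.5 CPM of each of these hypothalamic genes. Some results that rest on these libraries are given with and without them, and the others with all samples only.

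The levels of the receptors set the scale for every comparison. Per length, as RPKM (reads scaled for exon length and library size), *Nr3c1* was the highest of the 5 genes in all WT groups, at 5.26 ± 1.92 (SD, n = 2) in ESCs, 19.5 ± 0.401 (SD, n = 3) in NPCs, 15.9 ± 0.975 (SD, n = 3) in STR and 21.4 ± 0.746 (SD, n = 3) in PFC. In WT STR, *Nr3c2* followed at 12.5 ± 0.272 RPKM (SD, n = 3), *Pgr* at 2.05 ± 0.24, *Esr1* at 0.459 ± 0.136 and *Esr2* at 0.147 ± 0.0629. The order was the same in WT PFC, where *Nr3c2* was at 8.71 ± 0.82 RPKM (SD, n = 3), *Pgr* at 3.2 ± 0.3, *Esr1* at 0.192 ± 0.0116 and *Esr2* at 0.0965 ± 0.0439. In both brain regions no 2 neighbours in this order overlapped across WT samples. In WT ESCs, *Pgr* and *Nr3c2* overlapped, as did *Esr1* and *Esr2*. In WT NPCs *Esr2*, *Pgr* and *Esr1* overlapped and were at most 2 reads in any sample. Lengths are the summed exons of all transcripts, 13661 bases for *Esr1* against 3368 for *Esr2*. If a tissue uses shorter transcripts, its RPKM is understated.

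**Figure D1:**
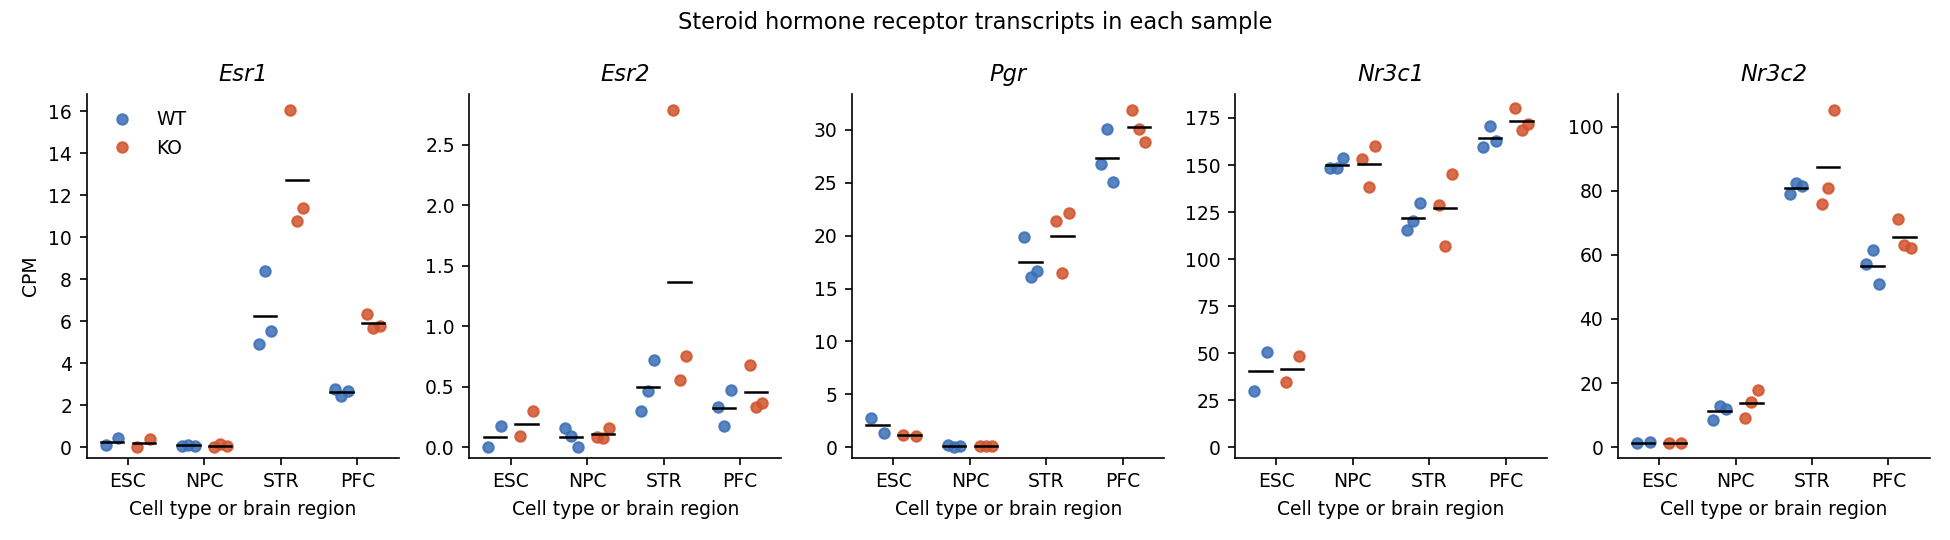
CPM of each receptor gene (vertical axis, linear and separate for each gene) in each sample of the 4 tissues, with WT in blue, KO in orange and a black bar at the group mean. *Esr1* is near 0 in ESCs and NPCs and lies between 10.8 and 16 CPM in KO STR against 4.9 to 8.37 CPM in WT STR, while the KO and WT samples of *Nr3c1* overlap in all 4 tissues.

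*Esr1* (ENSMUSG00000019768), encoding estrogen receptor alpha, lies at chr10:4611593-5005614 on the plus strand of GRCm38 and overlaps no other annotated gene. In WT PFC it was counted 25, 28 and 17 times, giving 2.75, 2.44 and 2.67 CPM. In KO PFC it was counted 56, 52 and 47 times, giving 6.34, 5.69 and 5.76 CPM. Every KO sample was thus above every WT sample, by a margin larger than the spread in either group. The log2 fold change was 1.17 (SE 0.20), or 2.25-fold. It stayed between 1.12 and 1.21 in all 12 other settings, including those that left out a sample. These settings refit the samples that chose the gene, so their closeness lends no support. Of 5 receptor genes, 4 passed the expression filter in PFC. Of all 15364 genes tested there, 0.638% were past the threshold in edgeR, but *Esr1* was selected on this contrast, so no call is given for the receptors. *Esr1* and *Nr3c2* had every KO sample above every WT sample, as did 8.69% of tested genes, and nothing is read from that count.

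The same gene in ventral striatum was not used for the choice. *Esr1* was at 4.9, 8.37 and 5.52 CPM in WT STR (49, 72 and 46 reads) and at 16, 10.8 and 11.4 CPM in KO STR (144, 97 and 90 reads). The groups did not overlap, and the highest sample was KO STR replicate 1. The log2 fold change was 1.03 (SE 0.24), a 2.05-fold difference, with an unadjusted p of 0.00185 and an FDR of 0.397 in edgeR's quasi-likelihood test. Thus *Esr1* did not pass the threshold in STR, and no gene of 15476 did (0% called, with 1346 at an unadjusted p under 0.05). DESeq2 called 60 genes and edgeR's likelihood ratio test 94. In the likelihood ratio test the FDR of *Esr1* was 0.0308 and it was called, whereas in DESeq2 it was 0.0619. Over all settings the FDR ran from 0.0308 to 0.858 and the log2 fold change from 0.82 to 1.29. Without KO STR replicate 1 the log2 fold change was 0.82 (SE 0.25) with an FDR of 0.858. The remaining KO samples still lay above the WT samples. *Esr1* was the only one of 4 tested receptor genes whose KO and WT samples did not overlap in STR, where 6.84% of tested genes had every KO sample above every WT sample. The difference between the KO effects in STR and PFC was not tested, because the PFC effect had served to choose the gene.

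Marker genes of other brain areas also differed between KO and WT striatum, in both directions. Of 10 hypothalamic markers, 5 were tested and all 5 were higher in KO STR, with 4 at an unadjusted p under 0.05 and none past the threshold in edgeR (2 in DESeq2). Of these 5, *Oxt*, *Avp* and *Gal* passed the expression filter through the KO samples, with at most 1.5 CPM in WT STR. Their direction was thus largely set by the filter, and nothing is read from these counts. The sum of all 10 markers was 11.9 to 19.1 CPM in WT and 29.8, 39.4 and 217.7 CPM in KO. *Sim1*, a defining gene of the paraventricular hypothalamus, was at 0 in 5 STR samples and at 5.35 CPM in KO STR replicate 1. *Gal* was at 27.3, 5.78 and 5.43 CPM in the KO samples and at most 0.899 CPM in WT. All 7 basal forebrain and septum markers were higher in KO STR, with a median log2 fold change of 0.48, and *Lhx8* spanned 14.3 to 19.8 CPM in WT and 27.7 to 46.7 CPM in KO. All 8 markers of striatal projection neurons were lower, with a median of -0.12 and 1 at an unadjusted p under 0.05. Markers of deep cortex, subplate and claustrum were lower. Their sum was 198.5 to 244.8 CPM in WT STR and 136.1 to 173.5 CPM in KO STR, and 5 of 6 tested were lower with a median of -0.51 and 1 at an unadjusted p under 0.05. With KO STR replicate 1 left out, the deep cortex median was -0.48, that of striatal projection neurons -0.03, the basal forebrain median 0.39 and that of the 5 hypothalamic genes 2.23. The part of these markers in the striatal *Esr1* values was not tested. In bulk tissue, more cells of one type and more RNA per cell cannot be told apart.

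In PFC these markers had other levels. *Lhx8* was at most 0.245 CPM in any PFC sample and *Sim1* at most 0.123 CPM, and the basal forebrain sum was 35.6 to 45.0 CPM in WT and 33.7 to 39.5 CPM in KO. The hypothalamic sum was 4.18 to 8.31 CPM in WT and 7.72 to 9.63 CPM in KO, of which *Trh* made up 1.43 to 3.14 and 4.82 to 5.78 CPM. Oligodendrocyte genes moved the other way. All 8 were lower in KO PFC and 5 fell past the threshold, with *Mog*, a myelin protein gene, at 58.2 to 72.1 CPM in WT and 33 to 36.8 CPM in KO. All 7 markers of layer 5 and 6 neurons were higher, with a median of 0.15 and none called. That list summed to 437.6 to 510.2 CPM in WT PFC but to 642.8 to 735.9 CPM in WT STR, so it does not mark cortical neurons alone. Of 6 tested markers of deep cortex, subplate and claustrum, 3 were higher and 3 lower with a median of 0.03. *Gnb4* rose past the threshold, from 31.9 ± 2.01 to 47.2 ± 4.43 CPM (SD, n = 3 each), while *Synpo2* was at -0.48 (SE 0.19, FDR 0.336). In WT STR *Gnb4* was at 96.2 to 110 CPM, so it is not particular to deep cortex. Striatal projection neuron markers summed to 218.2 to 230.6 CPM in WT and 232.7 to 248.1 CPM in KO. Of 8 tested, 5 were higher, 3 of them at an unadjusted p under 0.05 and none called, and *Drd1* was at 17.5 to 22.5 CPM in WT and 25.4 to 26.6 CPM in KO. All 5 endothelial markers were lower with a median of -0.24 and none called. Of 7 astrocyte markers 6 were lower with a median of -0.12, and *Gfap* fell past the threshold (log2 -0.49, SE 0.07, FDR 0.0114). The part of these markers in the cortical *Esr1* values was not tested.

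**Figure D2:**
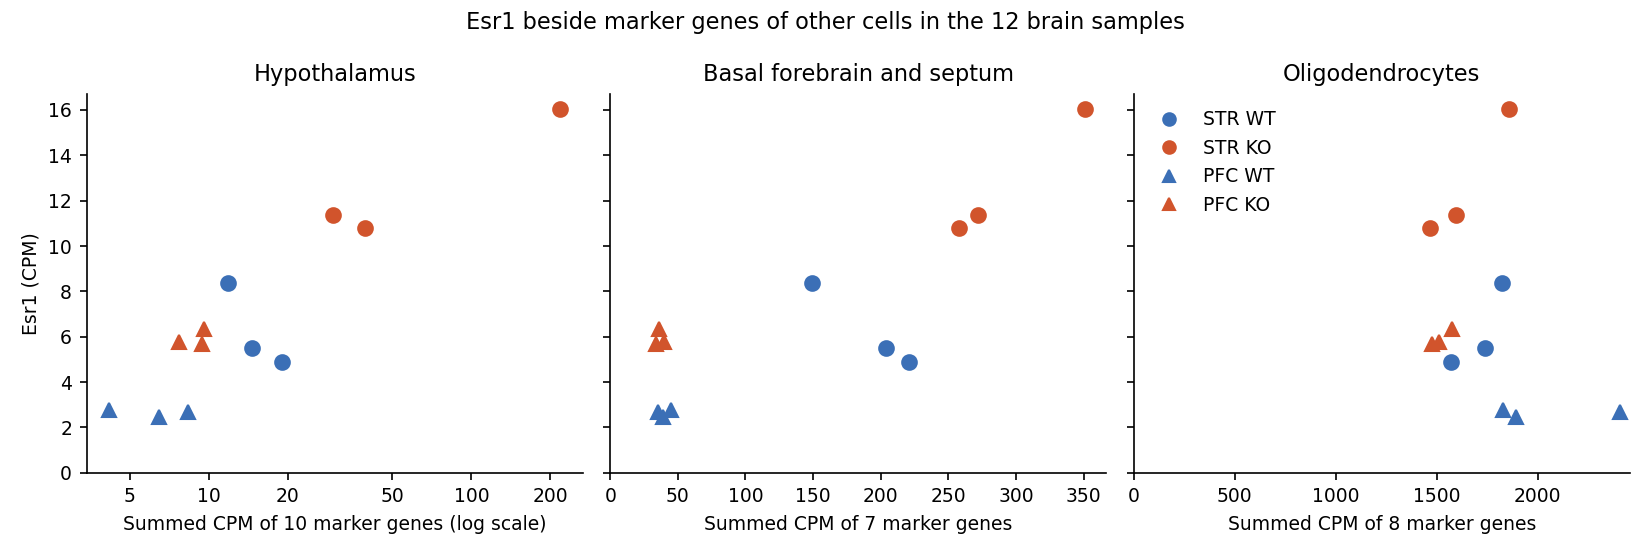
*Esr1* in CPM (vertical axis) against the summed CPM of hypothalamic (log axis), basal forebrain and septum, and oligodendrocyte markers in the 12 brain samples, with STR as circles, PFC as triangles, WT in blue and KO in orange. KO STR replicate 1 has the most *Esr1* and the most hypothalamic RNA, while in PFC the KO samples lie above WT at similar basal forebrain sums and at lower oligodendrocyte sums.

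In cultured cells *Esr1* was close to the limit of counting. It had 1 and 5 reads in WT ESCs, 0 and 4 in KO ESCs, 1 in each WT NPC sample, and 0, 2 and 1 in KO NPCs. A count of 3 corresponds to 0.22 to 0.47 CPM depending on the sample, and *Esr1* failed the expression filter in both KO comparisons. A KO difference was not detectable at this depth. Among WT samples, STR held 167 reads of *Esr1* in all and NPCs held 3, a ratio of 75.8 with an exact 95% counting interval of 25.5 to 371.4. WT ESCs held 6 reads, 5 of them in replicate 2, the sample with the fibroblast markers, whose part was not tested. The ratio of STR to ESCs was 22.1 (9.94 to 61.1). The ratio of ESCs to NPCs was 3.43 with an interval from 0.733 to 21.2, so these levels were not distinguishable. No test is given for these ratios, because *Esr1* passed the filter only through the brain samples. WT PFC lay between, with all 3 samples (2.44 to 2.75 CPM) below all 3 WT STR samples. This last difference, a log2 value of -1.29 (SE 0.29), was not tested because PFC samples had served to choose the gene.

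*Esr2* (ENSMUSG00000021055), encoding estrogen receptor beta, lies at chr12:76120419-76177259 on the minus strand and overlaps a pseudogene, *Gm7862*, so some of its reads are uncertain. It passed the expression filter in no comparison. It had 0 to 3 reads in every ESC and NPC sample, 3, 4 and 6 in WT STR, 2 or 3 in WT PFC, and 3 or 6 in KO PFC. The exception was KO STR replicate 1 with 25 reads (2.79 CPM), while the other KO STR samples had 5 and 6 (0.555 and 0.758 CPM). The sample with the most *Esr2* was therefore the one with the hypothalamic genes named above. Fitted without a filter, the KO minus WT difference in STR was 1.48 on the log2 scale (FDR 0.609).

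*Pgr* (ENSMUSG00000031870) lies at chr9:8899833-8968611 on the plus strand and overlaps no annotated gene. It was at 19.9, 16.1 and 16.7 CPM in WT STR and 21.4, 16.4 and 22.1 CPM in KO STR, at 26.7, 30.1 and 25.1 CPM in WT PFC and at 31.8, 30.1 and 28.8 CPM in KO PFC. KO and WT overlapped in both regions. The log2 fold change was 0.19 (SE 0.15, FDR 0.790) in STR and 0.13 (SE 0.10) in PFC. Leaving out 1 sample moved it between 0.12 and 0.30 in STR and between 0.08 and 0.21 in PFC. In ESCs *Pgr* was at 2.75 and 1.38 CPM in WT and 1.17 and 1.09 CPM in KO, so both KO samples were lower. The log2 fold change there was -0.86 (SE 0.47, FDR 1) with 11 to 27 reads per sample, and without WT ESC replicate 1 or 2 it was -0.33 or -1.26. In NPCs it had 0 to 2 reads in every sample and failed the filter.

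Across WT tissues *Pgr* had the widest range of the 5 genes by point estimate. WT NPCs held 3 reads in all, against 748 in WT PFC, a ratio of 339.8 with an exact 95% counting interval of 115.8 to 1651. That interval overlaps the one of *Esr1* for STR against NPCs (25.5 to 371.4), so which of them has the wider range is not settled. WT ESCs held 43 reads, a ratio to NPCs of 24.6 (7.87 to 124). On the log2 scale STR exceeded ESCs by 3.07 (SE 0.32, FDR 3.6e-06), or by 3.63 and 2.64 without WT ESC replicate 1 and 2. PFC exceeded ESCs by 3.67 (SE 0.32, FDR 8.4e-07), or by 4.24 and 3.24 without them. Between the regions, the 3 WT PFC samples were above the 3 WT STR samples, with a log2 difference of 0.60 (SE 0.23, FDR 0.129). This did not pass the threshold, although it did in DESeq2 (FDR 0.0269), in a fit of these regions alone (FDR 0.00530), and without WT ESC replicate 1 (FDR 0.0468), WT ESC replicate 2 (FDR 0.0466) or WT NPC replicate 2 (FDR 0.0476).

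*Nr3c2* (ENSMUSG00000031618), encoding the mineralocorticoid receptor, lies at chr8:76899442-77245012 on the plus strand and overlaps the small annotated genes *Gm10649*, *Gm24838* and *Gm23260*. In PFC it was at 57, 61.4 and 50.8 CPM in WT and 71.2, 63 and 62.3 CPM in KO. These groups did not overlap, but the gap between the nearest samples was smaller than the spread in either group. The log2 fold change was 0.20 (SE 0.09), and no test is given. In STR it was at 78.9, 82.4 and 81.4 CPM in WT and 75.8, 81 and 105 CPM in KO, where KO spanned the WT samples. The log2 fold change of 0.11 (SE 0.11, FDR 0.845) turned to -0.03 without KO STR replicate 3. In NPCs it was at 8.63, 13 and 12 CPM in WT and 9.06, 14.3 and 17.8 CPM in KO, and in ESCs at 1.19 to 1.56 CPM throughout. The KO sample was the higher one in all 3 NPC pairs of the same replicate number. Neither cell type showed a difference past the threshold, with log2 fold changes of 0.29 (SE 0.29, FDR 1) in NPCs and -0.19 (SE 0.37, FDR 1) in ESCs. In NPCs it was 0.27 (SE 0.15, FDR 0.557) with the replicate block, and ran from 0.05 without KO NPC replicate 3 to 0.52 without KO NPC replicate 1.

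Transcripts of the mineralocorticoid receptor were lowest in ESCs, higher in NPCs and highest in adult brain. In WT samples it was 7.45-fold higher in NPCs than in ESCs (log2 2.9, SE 0.22, FDR 4.2e-07), 7.31-fold higher in STR than in NPCs (log2 2.87, SE 0.15, FDR 1.5e-08) and 4.97-fold higher in PFC than in NPCs (log2 2.31, SE 0.14, FDR 7.3e-08). PFC was lower than STR by 0.56 (SE 0.13, FDR 0.0192) on the log2 scale. That last call was lost without WT STR replicate 1 (FDR 0.0595), 2 (FDR 0.0671) or 3 (FDR 0.0717), or without WT PFC replicate 1 (FDR 0.0677) or 3 (FDR 0.112), with log2 values between -0.58 and -0.46. It held in DESeq2 (FDR 0.00811) and in a fit of these regions alone (FDR 0.00115).

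*Nr3c1* (ENSMUSG00000024431), encoding the glucocorticoid receptor, lies at chr18:39410545-39519421 on the minus strand and overlaps no annotated gene. It was the one receptor with many reads everywhere, from 294 to 2094 per sample. In PFC it was at 160, 171 and 163 CPM in WT and 180, 169 and 172 CPM in KO, and in STR at 115, 120 and 130 CPM in WT and 129, 107 and 145 CPM in KO. In NPCs it was at 148, 148 and 154 CPM in WT and 153, 138 and 160 CPM in KO. In ESCs it was at 29.9 and 50.8 CPM in WT and 34.6 and 48.3 CPM in KO, where the second replicate of either genotype was higher than the first. The fibroblast gene *Col1a1* was also higher in those second replicates, at 1640 and 2010 against 82.4 and 80.1 CPM, and its part in the *Nr3c1* level was not tested. KO and WT samples overlapped in all 4 tissues. The log2 fold changes were 0.04 (SE 0.38) in ESCs, 0.01 (SE 0.08) in NPCs, 0.06 (SE 0.11) in STR and 0.07 (SE 0.07) in PFC, and the FDR was at least 0.92 in the 3 tissues where it was tested.

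Between WT tissues *Nr3c1* differed mainly between ESCs and the rest. NPCs exceeded ESCs 3.59-fold (log2 1.85, SE 0.18, FDR 3.1e-06), STR exceeded ESCs 2.96-fold (log2 1.57, SE 0.18, FDR 7.5e-06) and PFC exceeded ESCs 3.89-fold (log2 1.96, SE 0.18, FDR 1.2e-06). Without WT ESC replicate 2, the sample with the fibroblast genes, these log2 differences were 2.28, 2.00 and 2.39, and without replicate 1 they were 1.53, 1.24 and 1.64. NPCs and PFC were not distinguishable, with a log2 difference of 0.11 (SE 0.15, FDR 0.496), and STR was lower than NPCs by 0.28 (SE 0.15, FDR 0.107). PFC exceeded STR by 0.39 (SE 0.15, FDR 0.122) on the log2 scale, below the threshold, but past it in a fit of the brain regions alone (FDR 0.00262) and without either WT ESC replicate (FDR 0.00831 and 0.00822). The STR and NPC difference also passed in a fit of those groups alone (FDR 0.0162) and without either WT ESC replicate (FDR 0.00766 and 0.00772).

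Only *Nr3c1* and *Nr3c2* passed the expression filter within every tissue, so only they are counted between WT tissues. Both passed the threshold between NPCs and ESCs, where 72% of 17672 tested genes did, between STR and ESCs (82.4% of all genes) and between PFC and ESCs (82.3%). Between STR and NPCs 1 of 2 passed (75.2%), between PFC and NPCs 1 of 2 (75.2%) and between PFC and STR 1 of 2 (12.3%). With so few genes, nothing is read from these shares. In KO against WT without the replicate block, 0 of 3 tested receptor genes passed in ESCs (0% of 15080 genes, with 171 at an unadjusted p under 0.05 and 3 called by DESeq2). In NPCs 0 of 2 passed (0.00697% of 14351 genes, which is *Phf8* alone, with 435 at an unadjusted p under 0.05 and 3 called by DESeq2). None of the receptor genes had an unadjusted p under 0.05 in either cell type, although *Pgr* in ESCs did with the replicate block (p 0.0298, FDR 0.247). In STR 0 of 4 passed, and *Esr1* alone had an unadjusted p under 0.05.

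**Figure D3:**
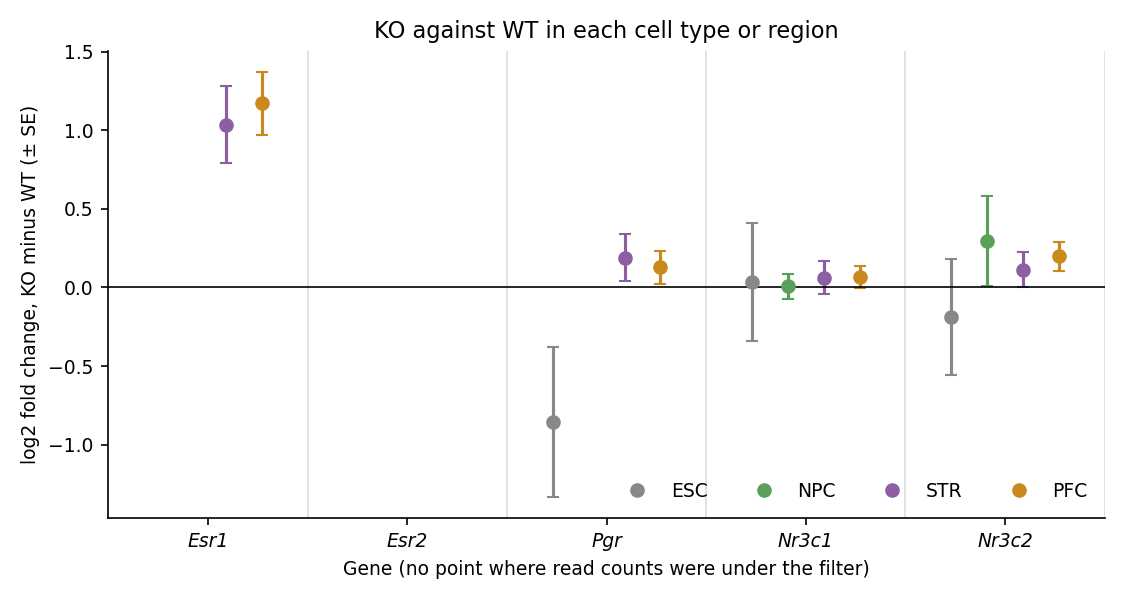
log2 fold change (KO minus WT) with its standard error for each receptor gene in ESCs (2 samples per genotype), NPCs, STR and PFC (3 each), for genes that passed the expression filter. *Esr1* is at 1.03 in STR and 1.17 in PFC, *Nr3c1* stays within 0.07 of 0 in all 4 tissues, and the widest error bars are those of ESCs.

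The genes around the receptors were compared as well. Within 500 kb of *Esr1*, 17 other genes are annotated, and 8 of them were tested in STR and PFC. None was called in edgeR's quasi-likelihood test, and in PFC 4 of 8 were higher in KO, between -0.38 and 0.18 on the log2 scale. In STR the same 8 ranged from -1.19 (*Gm16153*) to 0.71 (*Akap12*, a scaffold protein gene, FDR 0.429). None of the neighbours of the other 4 receptor genes was called in that test in any tissue. The largest absolute difference was -0.76 (SE 0.16, FDR 0.0603) for *Plekhg3*, near *Esr2*, in PFC. No other setting is given for neighbours.

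Over all 22 samples the genes most like *Esr1* in log2 CPM were *Mrap2*, a melanocortin receptor accessory protein (Pearson r 0.98), *Cntnap5c* (0.98), *Klhl1* (0.98), *Cnst* (0.98) and *Ankrd55* (0.97). For *Pgr* they were *Rab11fip4*, *Cntn2* and *Necab1* (all 0.99), for *Nr3c2* *Lrp1b* (0.995), *Gnb5* and *Tef* (both 0.99), and for *Nr3c1* *Pcdh9* (0.99), *Dip2a* and *Clip2* (both 0.99). The samples share their tissue differences, so these values describe levels over tissues. Within the 12 brain samples, where region and genotype are shared by 3 samples each, *Esr1* was most like *Marcksl1* (0.97), *Wdr6* (0.96), *Glra2*, a glycine receptor subunit (0.96), *D630023F18Rik* (0.95) and *Ebna1bp2* (0.95). Among the receptors, *Esr1* and *Nr3c2* correlated at 0.75 there (rank 507 of 18079 genes), whereas *Esr1* and *Pgr* were at -0.47 and *Esr1* and *Nr3c1* at -0.52. Both sets of samples hold the PFC samples that chose *Esr1*, so its correlations are a description and lend no support.

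The pathways around the receptors were examined with 8 lists that together held 112 genes beyond the receptors, of which 110 were matched by symbol. The lists were relatives of the receptors, chaperones, coactivators, corepressors, enzymes of steroid synthesis and metabolism, and genes that glucocorticoids, estrogens or mineralocorticoids are known to induce. No list gene was past the threshold in the main edgeR test (quasi-likelihood, with the expression filter and no replicate block) in any KO comparison with all samples. Calls of list genes with the replicate block are not given, so in ESCs and NPCs this result leaves out the pairing of samples. Those at an unadjusted p under 0.05 were 1 of 84 tested in ESCs, 5 of 85 in NPCs, 8 of 94 in STR and 12 of 95 in PFC. Over all genes tested, 1.13%, 3.03%, 8.7% and 11.2% had such a p in these tissues. DESeq2 called *Ret* in STR and *Hsd11b1* in PFC and none in the cell types. The likelihood ratio test called *Ret* in STR, and *Arrdc2*, *Hsd11b1*, *Tsc22d3* and *Ccnd1* in PFC. Without a filter, edgeR called 3 in PFC (*Arrdc2*, *Tsc22d3* and *Ccnd1*).

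Genes induced by glucocorticoids were mostly lower in KO brain, without a single call in the main edgeR test. In PFC 19 of 21 tested genes were lower, with a median log2 fold change of -0.21 against -0.02 over all genes. Of these 21, 6 had an unadjusted p under 0.05, as did 11.2% of all genes tested in PFC. *Tsc22d3*, encoding the glucocorticoid-induced leucine zipper, was at 96, 99.1 and 108 CPM in WT and 85.1, 82 and 70 CPM in KO PFC, a difference of -0.36 (SE 0.09, FDR 0.0981). *Arrdc2* was at 22.7, 25.9 and 21.5 CPM in WT and 15.7, 18.9 and 13.6 CPM in KO PFC, with a difference of -0.55 (SE 0.14, FDR 0.107). In both, every KO sample was below every WT sample, and both were called in the likelihood ratio test and without a filter. *Fkbp5*, a chaperone that glucocorticoids induce, differed by -0.19 (SE 0.10, FDR 0.510), and *Per1*, a clock gene, by 0.17 (SE 0.10, FDR 0.622). Leaving out single PFC samples gave 17 to 20 of 21 genes lower and medians from -0.27 to -0.13. The oligodendrocyte markers were also lower in KO PFC, with a median of -0.59, and their part in this list was not tested. In STR 17 of 21 were lower with a median of -0.09 against 0.00198 over all genes. *Arrdc2* was again below WT in every KO sample there (-0.43, SE 0.13, FDR 0.426), but *Tsc22d3* overlapped, at 70 to 75.4 CPM in WT and 65.5 to 89.4 CPM in KO. *Gjb6* leaned the other way with overlap, at 46.6, 42.1 and 51.8 CPM in WT and 66.9, 61.3 and 48 CPM in KO STR. Of the 21 genes in STR, 1 higher and 1 lower gene had an unadjusted p under 0.05, as did 8.7% of all genes tested there. In NPCs 5 of 18 and in ESCs 5 of 17 were lower, with medians of 0.08 and 0.12.

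Genes induced by estrogen leaned higher in KO STR, but none passed in the main edgeR test. The likelihood ratio test and DESeq2 called *Ret* there. A link between this list and the level of *Esr1* was not tested. Of 12 tested, 10 were higher, with a median of 0.22 against 0.00198 over all genes. *Ret*, encoding a receptor tyrosine kinase, was at 15, 10.7 and 14.9 CPM in WT and 40.7, 22.7 and 21.1 CPM in KO STR (log2 1.06, SE 0.27, FDR 0.411). *Prlr*, the prolactin receptor, was at 3.6, 2.09 and 4.8 CPM in WT and 32.7, 7.66 and 8.72 CPM in KO (log2 2.23, SE 0.67, FDR 0.452). For both genes KO STR replicate 1, the sample with hypothalamic RNA, was the highest. Without it, 9 of 12 were higher with a median of 0.20. In PFC 6 of 12 were higher with a median of 0.01. Without WT PFC replicate 2 these were 9 of 12 with a median of 0.09, and 1 was called. In PFC *Ccnd1*, encoding cyclin D1, was at 43.5, 58.2 and 40.8 CPM in WT and 62.7, 64.1 and 68.3 CPM in KO (log2 0.43, SE 0.12, FDR 0.149). The likelihood ratio test and the fit without a filter called *Ccnd1*. *Oxtr*, the oxytocin receptor, had the next smallest p, with 0.21 (SE 0.15, FDR 0.701). In ESCs 10 of 11 and in NPCs 4 of 10 were higher, with medians of 0.11 and -0.08. *Pgr* is a member of this list and is counted in it.

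The other lists had no call in the main edgeR test either. Of 12 relatives tested in STR, 10 were higher with a median of 0.13. *Gper1*, a membrane estrogen receptor, differed by -0.64 (SE 0.22, FDR 0.263) in PFC, where 8 of 12 relatives were lower with a median of -0.07. *Esrrb*, an orphan relative, differed by 0.96 (SE 0.40, FDR 0.555) in STR, with overlap.

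Among enzymes of steroid synthesis and metabolism, 12 of 17 tested were lower in KO PFC with a median of -0.14. *Hsd11b1*, which regenerates active glucocorticoid, was at 21.8, 37.8 and 26.8 CPM in WT and 20.2, 19.8 and 14.2 CPM in KO PFC (log2 -0.69, SE 0.20, FDR 0.188). *Srd5a1*, a steroid reductase, was at 18.5, 22.1 and 20.5 CPM in WT and 17.6, 14.8 and 13.1 CPM in KO PFC (log2 -0.44, SE 0.14, FDR 0.200). Neither passed. In STR 7 of 16 enzymes were lower, with *Sult2b1*, a steroid sulfotransferase, at -0.92 (SE 0.30, FDR 0.452) and *Cyp11a1* at 2.33 to 4.1 CPM in WT and 1.11 to 2.78 CPM in KO. Chaperones, coactivators and corepressors had list medians of 0.02, 0.05 and 0.01 in STR, against 0.00198 over all genes. In PFC their medians were -0.02, 0.06 and 0.06, against -0.02 over all genes. In the same order, 8 of 12, 8 of 10 and 5 of 9 were higher in KO STR, and 3 of 12, 7 of 10 and 7 of 9 in KO PFC. The smallest p among coactivators in PFC was that of *Ncoa3* (log2 -0.19, SE 0.09, FDR 0.489) and in STR that of *Crebbp* (log2 0.22, SE 0.12, FDR 0.639). Mineralocorticoid and sodium transport genes had medians of -0.06 in STR and -0.10 in PFC, where 6 of 8 were lower in either region. Their leading gene in PFC, *Tsc22d3*, is also on the glucocorticoid list.

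**Figure D4:**
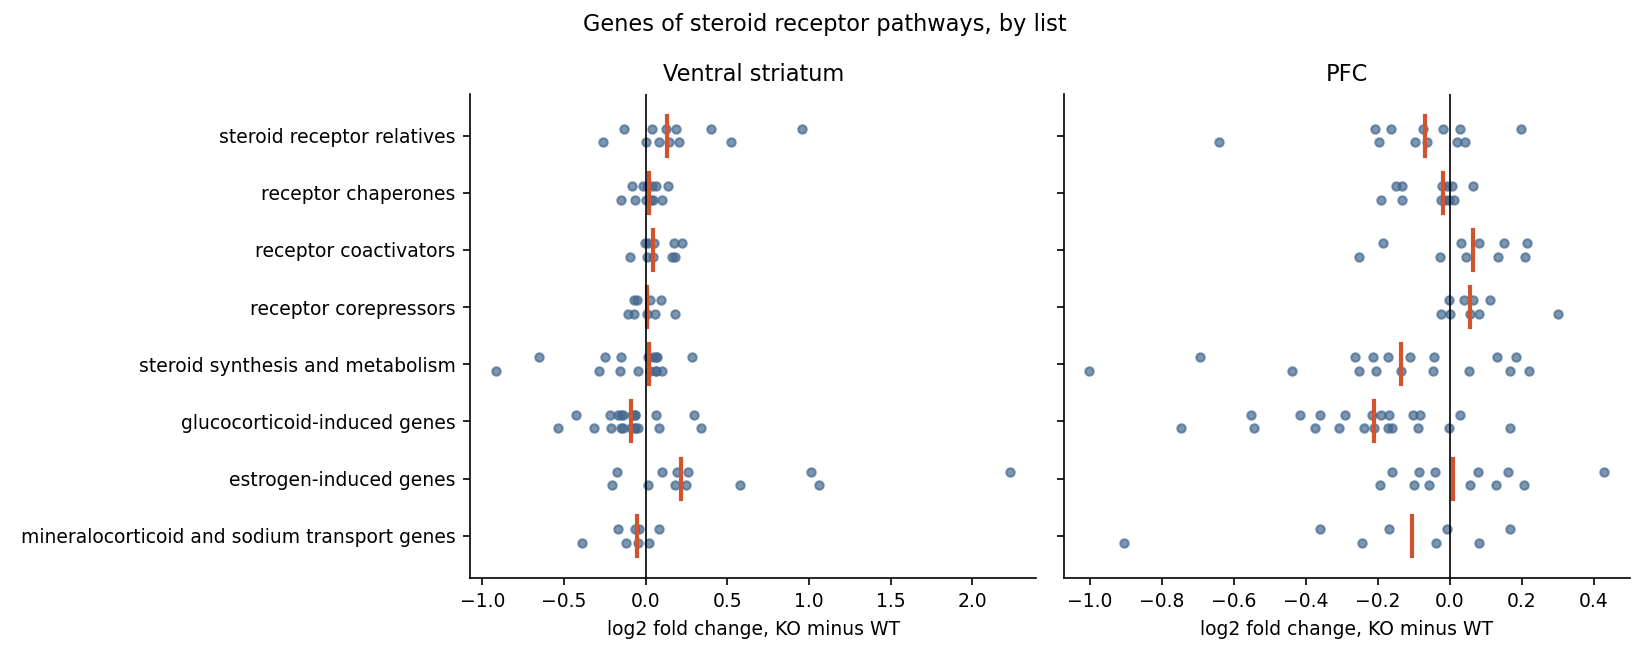
log2 fold change (KO minus WT) of each tested gene of the 8 lists (points) and the list median (orange bar) in STR and in PFC, with a separate horizontal scale for each region. Genes induced by glucocorticoids have a median of -0.21 in PFC and -0.09 in STR, and genes induced by estrogen a median of 0.22 in STR and 0.01 in PFC.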

How the data were processed

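Reads from TruSeq RNA libraries were aligned by the authors with STAR to mm10 (GRCm38) and counted with HTSeq on Ensembl genes. The submitters' processing notes also name CASAVA 1.7. The deposited values are raw read counts per gene, 1 table per sample, and are not normalized. Versions of STAR and HTSeq are not given in the sources used here, nor is a strand setting for the brain tables, while those of ESCs and NPCs are marked as not stranded. Reads of overlapping antisense genes may be mixed. From 20.2% to 53.1% of reads per sample were not counted on a gene and were left out. Gene names, positions and exon lengths came from GENCODE mouse release M21, which matched 37607 of 39179 identifiers and 99.709% of counts. CPM (with TMM factors over all 22 samples) and RPKM were computed here.

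KO and WT were compared within each tissue, and the 11 WT samples between tissues, with edgeR 4.0.16 in R 4.3.3 (quasi-likelihood test, filterByExpr, TMM, Benjamini-Hochberg FDR under 0.05). Alternatives were DESeq2 1.42.0, the likelihood ratio test, RLE size factors, no filter, fits of other sets of tissues, a log2 fold change beyond 1, a replicate block and each sample left out. Likeness used log2 CPM with a prior count of 2. The fits were tested on simulated data. Biological coefficients of variation were 31.4% (ESCs), 21.2% (NPCs), 11.1% (STR) and 8.52% (PFC). Counting intervals and floors (3 counts) cover counting error only.

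The receptor genes and the lists were chosen with earlier results of these data known. List genes named were those past the threshold or, where a list had none, the 2 with the smallest p in STR and PFC. One gene that this rule names is not reported here. *Per1*, *Oxt*, *Avp*, *Otp*, *Sim1*, *Gal*, *Trh*, *Lhx8*, *Mog*, *Gnb4*, *Synpo2*, *Drd1*, *Gfap* and *Col1a1* were named after their values were seen. Replicate pairs all differed by more than sampling noise, with a chi-square statistic 1.89 to 40.5 times its degrees of freedom. WT and KO share replicate numbers. Deviations of samples with the same number correlated at 0.52 to 0.71 in the 3 NPC pairs, so the numbers were taken to pair the NPC samples. The correlation was 0.88 in the 2 ESC pairs, -0.02 to 0.13 in STR and -0.03 to 0.05 in PFC. The main tests used no replicate block, so in ESCs and NPCs their FDRs and counts of called genes leave this likeness out.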

Additional observations from a re-analysis of the deposited data

How the results depend on the processing

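With the replicate block, genes called were 513, 3, 8 and 140 (ESCs, NPCs, STR, PFC), against 0, 1, 0 and 98 without it. The blocked log2 fold change of *Esr1* was 1.04 in STR and 1.17 in PFC, and the block changed no call of a receptor gene in ESCs, NPCs or STR. In STR and PFC the numbers did not pair the samples. Genes called in KO against WT were 3, 3, 60 and 182 (ESCs, NPCs, STR, PFC) in DESeq2 and 1, 2, 94 and 388 in the likelihood ratio test. Without a filter they were 2 in NPCs, 27 in STR and 379 in PFC. With both cell types or both regions in 1 fit they were 1 in ESCs, 13 in STR and 21 in PFC. With a log2 fold change beyond 1 as well, 18 remained in PFC. Leaving out 1 sample gave 0 for ESCs and NPCs, 0 to 2 for STR (2 without WT replicate 1) and 2 to 154 for PFC (2 without KO replicate 2 or 3, 37 without KO replicate 1, 18 without WT replicate 2, 154 without WT replicate 1). For WT PFC against WT STR the count of 2174 became 3791 in a fit of these regions alone, and 1234 to 2934 with 1 sample left out (1234 and 1280 without WT STR replicates 1 and 3, 1337 and 1395 without WT PFC replicates 1 and 2).

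With 1 sample left out, the log2 fold change of *Nr3c1* ran from -0.32 to 0.50 in ESCs, -0.045 to 0.063 in NPCs and -0.039 to 0.16 in STR, and that of *Nr3c2* from -0.035 to 0.20 in STR. *Nr3c1* reversed its sign without WT ESC replicate 1 (-0.32), KO ESC replicate 2 (-0.29), WT NPC replicate 1 (-0.0097), KO NPC replicate 1 (-0.0040), KO NPC replicate 3 (-0.045) and KO STR replicate 3 (-0.039). *Nr3c2* reversed without KO STR replicate 3 (-0.035). None of these differences was called in any setting. All 12 alternatives kept *Esr1* higher in KO STR and in KO PFC, where the PFC samples had served to choose the gene. Differences between cells and tissue are relative to a shift of all genes: the median log2 difference was -0.13 for WT NPCs against ESCs and 0.12 for STR against ESCs, and under RLE size factors -0.15 and 0.15. Depth limits the estrogen receptors in cultured cells and *Pgr* in NPCs. The fits that left out KO STR replicate 1 or others for the lists were chosen after seeing the data. The causes of the differences between settings were not tested.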
